A study of Homo sapiens with 6 samples.

Results

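PA-1 cells, an established human line from an ovarian teratocarcinoma, were sequenced for RNA after transfection with receptor-interacting protein kinases or exposure to a Wnt ligand. The comparison described here set the RIPK2 and RIPK3 libraries, as a pair, against the Wnt3a and RIPK4 libraries, as the other pair. It thus used 4 of the 6 libraries of the study, and the Vector and RIPK1 libraries served as markers of where each gene stood otherwise. The RIPK2, RIPK3, RIPK4, RIPK1 and Vector cells had received 8 µg of plasmid for 48 h, with the empty pCDNA3.1 backbone for Vector, and the Wnt3a cells had received 200 ng of Wnt3a for 16 h. Each group is 1 library, and the transfected cells were not described as a selected line. No plasmid amount was recorded for the Wnt3a cells, so that ligand, plasmid and time cannot be told apart in a difference from that library, whereas RIPK4 shares amount and time with RIPK2 and RIPK3.

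The libraries of a pair are unlike treatments and not replicates, so no SD and no p-value is given. A gene was compared where its mean over the 6 libraries reached 1 RPKM (reads per kilobase of gene and 1e6 reads), with the transfected genes RIPK2, RIPK3 and RIPK4 left out. This held for 11878 of 20494 genes. For each gene the lowest library of a pair was set against the highest library of the other pair in log2(RPKM + 1). That distance is called the gap below, positive where both RIPK2 and RIPK3 lay above both others, negative where they lay below, and 0 where the pairs overlapped. A gene was counted where the gap reached 1, that is 2-fold on this scale, which shrinks the differences of weakly expressed genes. Each ratio divides plain RPKM values of the same 2 libraries that set the gap, with an exact binomial 95% interval from their reads in brackets. The reads carry no molecular identifiers and can be copies of 1 molecule, so intervals and floors cover counting error only.

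As background, RIPK2 relays signals from the NOD receptors of bacterial cell wall fragments to NF-kB, and RIPK3 drives necroptosis, a regulated form of cell lysis. RIPK4 is best known from epidermal differentiation and has been placed in Wnt signalling. Wnt3a binds Frizzled and LRP receptors, which stabilises beta-catenin, and beta-catenin then acts with TCF and LEF factors on target genes. Many of those targets encode inhibitors of the pathway itself and so close a feedback loop.

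Library totals lay between 17.2 and 19.5 M reads, where a floor of 3 reads, the limit that a count of 0 allows, equals between 0.0769 and 0.0870 RPKM in a gene 2 kb long. The RIPK2 gene stood at 27.4 RPKM in the RIPK2 library and 8.50 RPKM in the RIPK3 library, against 9.38 RPKM in Wnt3a and 9.82 RPKM in RIPK4. The RIPK3 gene stood at 0.0384 RPKM in the RIPK2 library and 61.4 RPKM in its own, against 0.0200 RPKM in Wnt3a and 0 in RIPK4. The RIPK4 gene was found in its own library alone, at 17.9 RPKM. The RIPK1 gene stood at 12.7 RPKM in RIPK2 and 13.4 RPKM in RIPK3, against 9.35 RPKM in Wnt3a and 11.2 RPKM in RIPK4, with 16.6 RPKM in the RIPK1 library and 12.8 RPKM in Vector. Its own library thus stood modestly above the others. RIPK3 is therefore nearly silent in these cells without the plasmid, while RIPK2 is a gene that the cells already use.

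Both RIPK2 and RIPK3 lay at least 2-fold above both Wnt3a and RIPK4 at 53 genes (0.446% of those compared) and at least 2-fold below both at 17 genes (0.143%). Protein-coding genes made up 52 and 16 of these, and the other 1 on each side was a small RNA. The higher side included 7 interferon-stimulated effectors, 4 TGF-beta or BMP genes and the matrix enzyme LOX, which had the largest gap. The lower side included 8 genes of the Wnt pathway: 4 feedback inhibitors and the homeobox genes CDX1, CDX2, MSX1 and MIXL1. By any amount, the pairs did not overlap at 2728 genes with RIPK2 and RIPK3 higher (23% of genes compared) and at 3675 with them lower (30.9%). At 1.5-fold the counts were 196 higher (1.65%) and 146 lower (1.23%). The median difference of the pair means over all genes was -0.02 on the log2 scale. The shares of 0.446% and 0.143% also stand beside the counts of list members given below. With shares so small, an absence of counted members says little about a list.

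**Figure D1:**
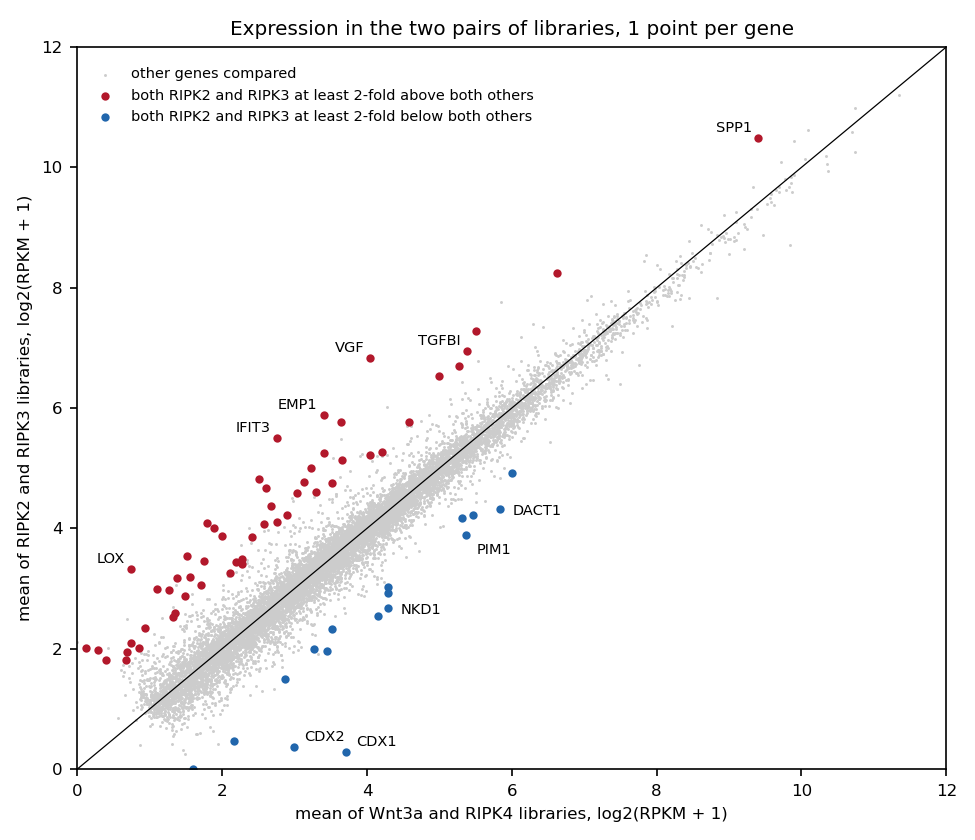
Mean log2(RPKM + 1) of the RIPK2 and RIPK3 libraries (vertical axis) against that of the Wnt3a and RIPK4 libraries (horizontal axis), 1 point for each of 11878 genes. Red points are the 53 genes at least 2-fold higher in both RIPK2 and RIPK3 than in both others, blue points the 17 genes at least 2-fold lower, and the line marks equal means.

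The counts depend on both libraries of a pair agreeing, so leaving out a library can only add genes, by construction, for the lists below as well. With RIPK4 as the sole partner of RIPK2 and RIPK3, where plasmid amount and time match, 65 genes were counted higher and 28 lower. With Wnt3a alone, 139 were counted higher and 61 lower. Without RIPK2 the counts were 78 and 29, and without RIPK3 they were 97 and 39. RIPK2 and RIPK3 themselves stood closer to each other than Wnt3a and RIPK4 did, by the median over all genes. The median size of the difference between libraries of a pair was 0.11 for RIPK3 minus RIPK2 and 0.13 for RIPK4 minus Wnt3a, on the log2 scale. Among the 53 higher genes, 0 differed 2-fold between RIPK2 and RIPK3, against 0.354% of all genes, so the 0 says little about them. Of the 53, 7 stood at least 2-fold higher in RIPK4 than in Wnt3a, against 35 of all 11878 genes. The rule chose the 53 from the values of these same libraries, so that difference is not independent of it.

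The largest gap on the higher side was at LOX (gene identifier 4015), the lysyl oxidase that cross-links collagen and elastin. LOX stood at 9.26 RPKM in RIPK2 and 8.68 RPKM in RIPK3, against 0.648 RPKM in Wnt3a and 0.708 RPKM in RIPK4, with 0.849 RPKM in Vector and 0.345 RPKM in RIPK1. The ratio across the gap was 12.3 (9.29 to 16.5). RIPK2 and RIPK3 were high together and the other 4 libraries were all under 1 RPKM. VGF, the precursor of secreted neuropeptides, stood at 99.9 and 127 RPKM in RIPK2 and RIPK3, against 13.7 and 17.6 RPKM in Wnt3a and RIPK4, with 15.2 RPKM in Vector and 7.11 RPKM in RIPK1 (ratio 5.67, 5.26 to 6.11). EMP1, a tetraspan protein of the cell membrane, stood at 56.7 and 59.6 RPKM in RIPK2 and RIPK3, against 9.36 and 9.75 RPKM in Wnt3a and RIPK4, with 10.9 RPKM in Vector and 6.22 RPKM in RIPK1 (ratio 5.81, 5.29 to 6.40). In both genes the 4 other libraries formed a low group, with RIPK1 lowest.

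IGFBP6, a binding protein that holds insulin-like growth factors, stood at 15.8 and 16.1 RPKM in RIPK2 and RIPK3, against 2.18 and 2.77 RPKM in Wnt3a and RIPK4, with 1.14 RPKM in Vector (ratio 5.70, 4.20 to 7.88). IL11, a cytokine of the interleukin 6 family, stood at 10.7 RPKM in both RIPK2 and RIPK3, against 1.995 and 1.716 RPKM in Wnt3a and RIPK4, with 1.87 RPKM in Vector (ratio 5.34, 4.24 to 6.79). CLCF1, a cytokine of that family outside the 15 largest gaps and chosen after its values were seen, stood at 4.66 and 3.54 RPKM in RIPK2 and RIPK3, against 0.986 and 0.831 RPKM in Wnt3a and RIPK4. Each of these 3 genes had its higher pair clear of the 4 other libraries. GAL, the neuropeptide galanin, stood at 35.2 and 39.6 RPKM in RIPK2 and RIPK3, against 9.24 and 9.90 RPKM in Wnt3a and RIPK4 (ratio 3.55, 2.94 to 4.31). PTPRN, a phosphatase-like protein of dense-core secretory vesicles, stood at 6.62 and 7.12 RPKM in RIPK2 and RIPK3, against 1.36 and 1.46 RPKM in Wnt3a and RIPK4 (ratio 4.53, 3.65 to 5.68). Of the 4 kept members of the list of granins and dense-core proteins, VGF was the 1 counted, and the list median was 0.03, so the list as a whole sat near the median of all genes.

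KCNF1, a silent subunit of voltage-gated potassium channels, was read few times outside RIPK2 and RIPK3. It stood at 2.92 and 3.14 RPKM in RIPK2 and RIPK3, against 0.0944 and 0.0716 RPKM in Wnt3a and RIPK4, with 0 in RIPK1. The ratio of 31.0 (11.8 to 115) rests on 129 reads against 4. MARCH4, a membrane-bound ubiquitin ligase, stood at 7.11 and 6.81 RPKM in RIPK2 and RIPK3, against 1.02 and 1.26 RPKM in Wnt3a and RIPK4. SOX14, a SOX factor of neural development, stood at 14.01 and 13.2 RPKM in RIPK2 and RIPK3, against 2.44 and 3.67 RPKM in Wnt3a and RIPK4. S100A16, a calcium-binding protein, stood at 145 and 166 RPKM in RIPK2 and RIPK3, against 40.8 and 48.4 RPKM in Wnt3a and RIPK4. In none of these 4 genes did Vector or RIPK1 reach the RIPK2 and RIPK3 levels.

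**Figure D2:**
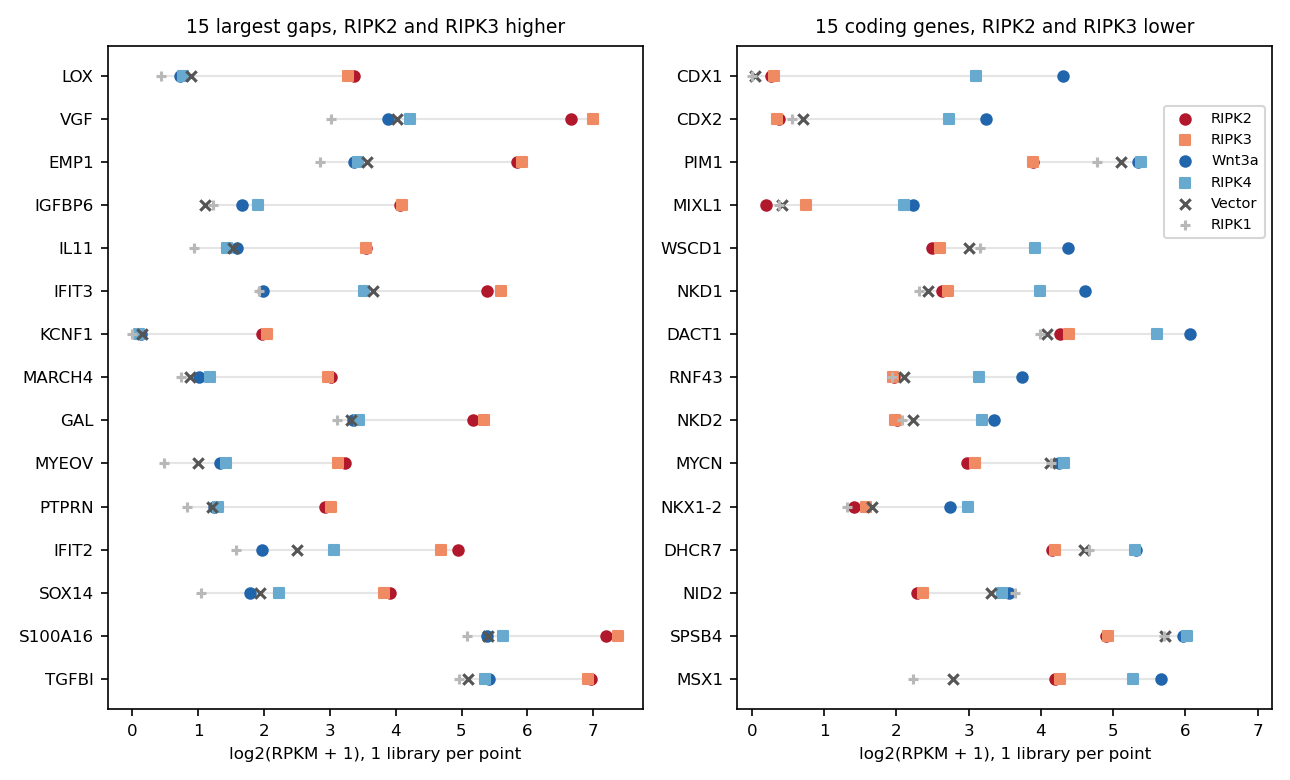
Log2(RPKM + 1) in every library for the 15 protein-coding genes with the largest gaps above (left panel) and 15 of the 16 protein-coding genes counted lower (right panel), 1 symbol per library. In the left panel RIPK2 and RIPK3 lie together at the high end. In the right panel they lie below Wnt3a and RIPK4, and Vector lies near them for CDX1, NKD1 and DACT1 but near Wnt3a and RIPK4 for PIM1, MYCN and SPSB4.

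Interferon-stimulated effectors, the antiviral proteins made after interferon reaches its receptor, had the highest median among 28 gene lists. Of 38 listed genes 29 were kept, and 7 of these were counted higher and 0 lower: IFIT2, IFIT3, IFIT5, OAS2, OASL, XAF1 and CMPK2. The pairs did not overlap, with RIPK2 and RIPK3 above, at 25 of the 29 and, with them below, at 1, IFITM2. The shares over all genes were 23% above and 30.9% below by any amount, and 0.446% and 0.143% past 2-fold. The list median was 1.11, against -0.02 for all genes. With RIPK4 alone as the partner the median was 0.67. With Wnt3a alone it was 1.55, and 19 members were counted higher, against 139 of all 11878 genes. Without RIPK2, 12 members were counted higher, against 78 of all 11878 genes. RIPK4 stood above Wnt3a at 27 of the 29 members, against 6523 of all 11878 genes, so the Wnt3a library was the lower partner for most members.

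IFIT3, an RNA-binding antiviral protein with tetratricopeptide repeats, stood at 41.0 and 47.5 RPKM in RIPK2 and RIPK3, against 2.97 and 10.4 RPKM in Wnt3a and RIPK4, with 11.6 RPKM in Vector and 2.78 RPKM in RIPK1 (ratio 3.94, 3.57 to 4.34). Vector stood beside RIPK4, and Wnt3a beside RIPK1. IFIT2 stood at 29.7 and 24.7 RPKM in RIPK2 and RIPK3, against 2.92 and 7.34 RPKM in Wnt3a and RIPK4, with 4.68 RPKM in Vector. OASL, a relative of the oligoadenylate synthetases that make the activator of RNase L, stood at 25.8 and 23.5 RPKM in RIPK2 and RIPK3, against 2.61 and 9.21 RPKM in Wnt3a and RIPK4, with 3.47 RPKM in Vector and 0.845 RPKM in RIPK1. XAF1, a protein that binds the apoptosis inhibitor XIAP, stood at 14.8 and 15.6 RPKM in RIPK2 and RIPK3, against 1.33 and 4.83 RPKM in Wnt3a and RIPK4, with 9.14 RPKM in Vector. XAF1 shares 69.9% of its exon bases with a noncoding gene on the opposite strand, and the sources used here do not say whether reads were counted by strand. CMPK2, a mitochondrial nucleotide kinase, stood at 2.33 and 3.62 RPKM in RIPK2 and RIPK3, against 0.119 and 0.320 RPKM in Wnt3a and RIPK4. IFIT1, the founding member of its family, stood at 196 and 239 RPKM in RIPK2 and RIPK3, against 31.2 and 102 RPKM in Wnt3a and RIPK4, with 152 RPKM in Vector. Its gap of 0.93 fell short of the 2-fold mark.

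The most abundant members separated the pairs least. ISG15, a ubiquitin-like modifier, stood at 1547 and 1603 RPKM in RIPK2 and RIPK3, against 882 and 1345 RPKM in Wnt3a and RIPK4, a gap of 0.20. IFITM3, which blocks the entry of viruses from endosomes, overlapped between the pairs at 878 and 913 RPKM in RIPK2 and RIPK3, against 911 and 843 RPKM in Wnt3a and RIPK4. Measured from Vector, which both pairs share, the list median was 0.67 for the RIPK2 and RIPK3 mean and -0.28 for the Wnt3a and RIPK4 mean. RIPK1 was the lowest library at 23 of the 29 members and Wnt3a at 5. Of all 11878 genes, RIPK1 was lowest at 2498 and Wnt3a at 2652, so the 5 are no excess for Wnt3a.

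Among nucleic acid sensors and interferon signalling factors, 18 of 22 genes were kept and 0 were counted, with a list median of 0.35. Of the 18, 12 lay above without overlap and 1 below, against 23% and 30.9% of all genes. The RNA sensor DDX58 stood at 40.4 and 47.2 RPKM in RIPK2 and RIPK3, against 6.54 and 19.8 RPKM in Wnt3a and RIPK4, just outside the count with a gap of 0.995. The RNA sensor IFIH1 stood at 13.2 and 17.4 RPKM in RIPK2 and RIPK3, against 2.61 and 6.45 RPKM in Wnt3a and RIPK4, with a gap of 0.93. IRF7, a transcription factor that drives interferon genes, stood at 40.2 and 38.9 RPKM in RIPK2 and RIPK3, against 15.2 and 25.1 RPKM in Wnt3a and RIPK4, with 22.3 RPKM in Vector. Interferon genes themselves were read at low levels. IL29, an interferon of the lambda type, was counted with 54 and 31 reads in RIPK2 and RIPK3, against 3 and 7 reads in Wnt3a and RIPK4, with 2 reads in Vector and 4 in RIPK1 (ratio 4.25, 1.84 to 11.4). It has close relatives in the genome that could share reads and is uncertain, and it lay last inside the 2-fold mark. IFNB1, interferon beta, was below the filter at 29 and 17 reads in RIPK2 and RIPK3, against 0 and 5 reads in Wnt3a and RIPK4, with 4 reads in Vector and 0 in RIPK1. IL29, and the nuclear body proteins SP100 and SP110 that interferon also induces, were named after their values were seen. SP110 stood at 18.8 and 20.7 RPKM in RIPK2 and RIPK3, against 3.30 and 8.55 RPKM in Wnt3a and RIPK4.

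Promoters of these genes were searched for the core of the interferon-stimulated response element, 2 GAAA repeats with any 2 bases between them, on both strands of the 250 bases before and 50 bases after the RefSeq start sites (GRCh38.p14). Of the 53 higher genes 36 had a promoter in the table, and 3 of them held the core (8.33%), against 0 of 13 lower genes and 4.38% of 27305 genes. The 3 are shown over 100 bases each, 5′ to 3′ on the strand of the gene, with the core in capitals, where it reads as TTTC repeats because it lies on the opposite strand.
IFIT3 (chr10:89327796-89327895, + strand): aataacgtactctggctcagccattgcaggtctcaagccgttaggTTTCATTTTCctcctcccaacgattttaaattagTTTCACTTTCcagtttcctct
IFIT5 (chr10:89414468-89414567, + strand): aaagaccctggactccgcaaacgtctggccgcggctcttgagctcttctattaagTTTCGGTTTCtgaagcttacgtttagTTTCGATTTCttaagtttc
IL29 (chr19:39296157-39296256, + strand): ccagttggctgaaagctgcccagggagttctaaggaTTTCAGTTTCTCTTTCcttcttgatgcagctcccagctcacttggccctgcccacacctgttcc
Each window holds 2 matches, which overlap in the IL29 window. A match is a string of letters and not a measured site.

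TGF-beta and BMP ligands and targets had the second highest list median, 0.55 over 21 kept of 24 listed genes. TGF-beta ligands act through SMAD factors on genes of matrix, adhesion and cell identity. Of the 21, 4 were counted higher, among them TGFB1, TGFBI and ID3, and 0 lower, against 0.446% and 0.143% of all genes. By any amount, 18 members lay above without overlap and 1, ID2, lay below, against 23% and 30.9% of all genes. TGFB1, the ligand, stood at 102 and 104 RPKM in RIPK2 and RIPK3, against 35.9 and 39.3 RPKM in Wnt3a and RIPK4, with 33.5 RPKM in Vector (ratio 2.59, 2.45 to 2.74). TGFBI, a secreted adhesion protein named for its induction by the ligand, stood at 124 and 120 RPKM in RIPK2 and RIPK3, against 41.5 and 39.9 RPKM in Wnt3a and RIPK4, with 33.4 RPKM in Vector.

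ID3, an inhibitor of basic helix-loop-helix factors that BMP induces, stood at 37.2 and 35.7 RPKM in RIPK2 and RIPK3, against 14.4 and 16.6 RPKM in Wnt3a and RIPK4, with 10.1 RPKM in Vector. Its relative ID2 lay the other way, at 19.6 and 15.4 RPKM in RIPK2 and RIPK3, against 28.7 and 24.5 RPKM in Wnt3a and RIPK4. INHBA, the activin A subunit, missed the filter because it was nearly unread elsewhere, at 1.99 and 2.45 RPKM in RIPK2 and RIPK3, against 0 and 0.0482 RPKM in Wnt3a and RIPK4, with 0.0512 RPKM in Vector. With RIPK4 alone as the partner the list median was 0.38. With Wnt3a alone it was 0.82, and 6 members were counted higher, against 139 of all 11878 genes.

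Collagens and matrix genes were split, with LOX and TNC counted higher and 0 counted lower among 32 kept of 36 listed genes. The list median was 0.00, with 12 of the 32 above and 11 below without overlap, against 23% and 30.9% of all genes. The share below was thus near that of all genes. TNC, a matrix glycoprotein of remodelling tissue, stood at 37.1 and 37.8 RPKM in RIPK2 and RIPK3, against 17.7 and 17.4 RPKM in Wnt3a and RIPK4, with 12.6 RPKM in Vector. THBS1, an adhesive glycoprotein that activates latent TGF-beta, lay the other way at 8.16 and 6.70 RPKM in RIPK2 and RIPK3, against 18.7 and 14.9 RPKM in Wnt3a and RIPK4. Outside the list and chosen after their values were seen, the matrix genes COL8A1, LAMA4 and SPP1 were counted higher too. SPP1, the secreted phosphoprotein osteopontin, was the most abundant counted gene at 1410 and 1461 RPKM in RIPK2 and RIPK3, against 698 and 656 RPKM in Wnt3a and RIPK4, with 617 RPKM in Vector.

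Immediate early genes and targets of AP-1 or ERK, which respond to growth factors, had a median of 0.34 over 24 kept of 28 listed genes. Of the 24, 1 was counted higher, and 17 lay above and 4 below without overlap, against 23% and 30.9% of all genes. The counted gene was MYEOV, at 8.38 and 7.74 RPKM in RIPK2 and RIPK3, against 1.51 and 1.67 RPKM in Wnt3a and RIPK4. JUN, a subunit of AP-1, stood at 36.0 and 35.6 RPKM in RIPK2 and RIPK3, against 16.6 and 18.2 RPKM in Wnt3a and RIPK4, with a gap of 0.93. FOSL2, another subunit, stood at 9.03 and 7.46 RPKM in RIPK2 and RIPK3, against 2.81 and 3.74 RPKM in Wnt3a and RIPK4. EGR1, an early zinc finger factor, lay below at 22.0 and 24.4 RPKM in RIPK2 and RIPK3, against 34.9 and 34.2 RPKM in Wnt3a and RIPK4. The AP-1 letters TGANTCA stood in 8 of 36 higher promoters (22.2%), 1 of 13 lower ones and 9.37% of the 27305 genes with a promoter. The windows of EMP1 and IL11, among the 5 largest gaps, are shown with these letters in capitals.
EMP1 (chr12:13196504-13196603, + strand): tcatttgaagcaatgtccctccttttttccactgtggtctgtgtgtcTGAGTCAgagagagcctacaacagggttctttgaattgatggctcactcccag
IL11 (chr19:55370507-55370606, - strand): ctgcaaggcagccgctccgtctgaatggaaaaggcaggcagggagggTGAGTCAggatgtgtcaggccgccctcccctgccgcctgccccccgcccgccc
The letters overlap none of the other motifs in these windows, and the share over 36 promoters is a description with no test.

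NF-kB targets had a median of 0.30 over 18 kept of 31 listed genes, with 13 above and 4 below without overlap. For this and the next 2 lists, the shares over all genes were 23% above and 30.9% below. CCL5, a chemokine that attracts T cells and monocytes, was the 1 counted, at 7.77 and 8.50 RPKM in RIPK2 and RIPK3, against 1.23 and 2.89 RPKM in Wnt3a and RIPK4, with 0.992 RPKM in Vector. PLAU, the urokinase protease, followed with 66.3 and 73.6 RPKM in RIPK2 and RIPK3, against 32.5 and 36.6 RPKM in Wnt3a and RIPK4. NFKBIA, the inhibitor that NF-kB itself induces, stood at 12.7 and 13.9 RPKM in RIPK2 and RIPK3, against 10.1 and 8.67 RPKM in Wnt3a and RIPK4, a gap of 0.31. The chemokine CCL20 was at 0 in all 6 libraries. Necroptosis and death-receptor genes had a median of 0.18, with 10 of 15 kept members above, 0 below and 0 counted. MLKL, the executioner that RIPK3 phosphorylates in necroptosis, stood at 1.19 and 1.26 RPKM in RIPK2 and RIPK3, against 1.11 and 0.516 RPKM in Wnt3a and RIPK4. Among MHC class I presentation genes 6 of 13 kept members lay above and 1 below, with a median of 0.17, and their HLA members have near-identical copies and are uncertain.

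**Figure D3:**
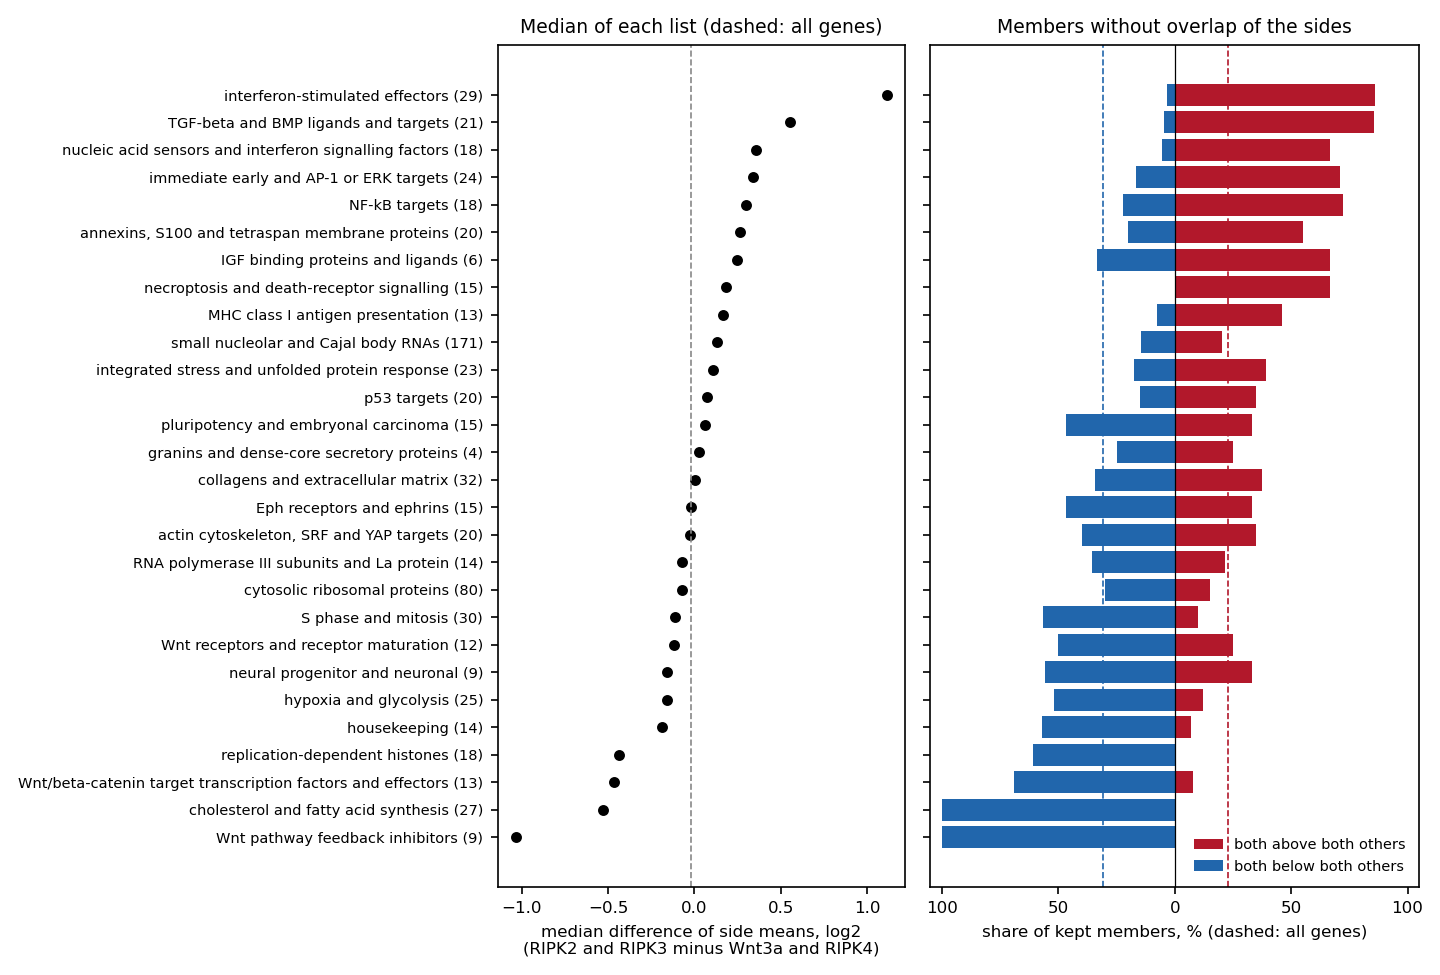
Left, the median difference of pair means (RIPK2 and RIPK3 minus Wnt3a and RIPK4, log2) of each of 28 gene lists, with the number of kept members in brackets and the median of all genes as a dashed line. Right, the percent of kept members without overlap, above (red) and below (blue), with the percents of all genes, 23 and 30.9, as dashed lines: interferon-stimulated effectors lie at the top with 25 of 29 above, and cholesterol genes and Wnt feedback inhibitors at the bottom with every member below.

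On the lower side, the feedback inhibitors of the Wnt pathway stood out. All 9 kept of 13 listed genes lay below without overlap, against 30.9% of all genes. Of the 9, 4 were past 2-fold, against 0.143% of all genes counted lower, and the list median was -1.03. NKD1, which binds Dishevelled, stood at 5.21 and 5.57 RPKM in RIPK2 and RIPK3, against 23.4 and 14.8 RPKM in Wnt3a and RIPK4, with 4.39 RPKM in Vector and 3.98 RPKM in RIPK1 (ratio 2.66, 2.31 to 3.07). Its relative NKD2 stood at 3.04 and 2.94 RPKM in RIPK2 and RIPK3, against 9.20 and 8.09 RPKM in Wnt3a and RIPK4, with 3.69 RPKM in Vector. RNF43, the ubiquitin ligase that removes Frizzled receptors, stood at 2.90 and 2.86 RPKM in RIPK2 and RIPK3, against 12.4 and 7.84 RPKM in Wnt3a and RIPK4, with 3.28 RPKM in Vector. For these 3 genes RIPK2 and RIPK3 stood beside Vector and RIPK1, and Wnt3a stood above RIPK4. RNF43 shares 58.5% of its exon bases with another annotated gene on its own strand, so part of its reads may belong there. DACT1, a Dishevelled antagonist, stood at 18.2 and 19.97 RPKM in RIPK2 and RIPK3, against 66.2 and 47.6 RPKM in Wnt3a and RIPK4, with 16.0 RPKM in Vector (ratio 2.38, 2.25 to 2.53).

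AXIN2, the scaffold of the complex that destroys beta-catenin, missed the mark with a gap of -0.70, at 14.1 and 16.7 RPKM in RIPK2 and RIPK3, against 35.1 and 27.8 RPKM in Wnt3a and RIPK4, with 14.7 RPKM in Vector. NOTUM, which removes the lipid of Wnt proteins, stood above Vector in all 4 libraries, at 4.91 and 4.92 RPKM in RIPK2 and RIPK3, against 10.8 and 7.36 RPKM in Wnt3a and RIPK4, with 2.07 RPKM in Vector and 1.34 RPKM in RIPK1. Measured from Vector, the list median was 0.10 for RIPK2 and RIPK3 and 1.04 for Wnt3a and RIPK4. With Wnt3a alone as the partner, 7 members were counted lower, against 61 of all 11878 genes. The other 4 listed genes, DKK1, DKK4, SP5 and WIF1, were each under 1 RPKM in all 6 libraries.

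Among transcription factors and effectors that beta-catenin targets, 13 of 20 listed genes were kept, and the median was -0.47. Of these, 4 were counted lower, against 0.143% of all genes. Of the 13, 9 lay below and 1 above without overlap, against 30.9% and 23% of all genes. CDX1, a caudal homeobox gene of the posterior body, had the largest gap of all genes at -2.80. It stood at 0.205 and 0.237 RPKM in RIPK2 and RIPK3, against 18.8 and 7.61 RPKM in Wnt3a and RIPK4, with 0.0327 RPKM in Vector and 0 in RIPK1, a ratio of 32.2 (16.1 to 75.3). CDX2 stood at 0.298 and 0.276 RPKM in RIPK2 and RIPK3, against 8.48 and 5.64 RPKM in Wnt3a and RIPK4, with 0.638 RPKM in Vector (ratio 18.9, 10.6 to 37.2). Both caudal genes thus passed 1 RPKM in Wnt3a and RIPK4 alone. MIXL1, a homeobox gene of the primitive streak, stood at 0.149 and 0.676 RPKM in RIPK2 and RIPK3, against 3.71 and 3.28 RPKM in Wnt3a and RIPK4, with 0.332 RPKM in Vector (ratio 4.86, 2.33 to 11.4). The MIXL1 promoter was the 1 of 13 lower promoters that held the TCF/LEF core CTTTGAT. The core was also found in 2 of 36 higher promoters and in 3.18% of the 27305 genes with a promoter. The MIXL1 window is shown with these letters in capitals.
MIXL1 (chr1:226223541-226223640, + strand): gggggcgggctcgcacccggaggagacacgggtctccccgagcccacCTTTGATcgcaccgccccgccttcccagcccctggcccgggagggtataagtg
Most enhancers lie outside such windows, which were not searched further.

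MSX1, a homeobox gene of limb and neural crest, differed from the caudal genes in its Vector level. It stood at 17.4 and 18.2 RPKM in RIPK2 and RIPK3, against 49.8 and 37.6 RPKM in Wnt3a and RIPK4, but at 5.90 RPKM in Vector and 3.71 RPKM in RIPK1, so RIPK2 and RIPK3 lay between. Its gap of -1.01 was the smallest counted on the lower side, and it was -0.98 with median-ratio scaling and -0.94 with the GC trend removed. LEF1, a factor through which beta-catenin reaches DNA, stood at 3.92 and 4.09 RPKM in RIPK2 and RIPK3, against 7.31 and 4.73 RPKM in Wnt3a and RIPK4, a gap of -0.17. CCND1, the cyclin often cited as a target, overlapped at 246 and 244 RPKM in RIPK2 and RIPK3, against 246 and 211 RPKM in Wnt3a and RIPK4. MYC lay the other way, at 16.04 and 15.04 RPKM in RIPK2 and RIPK3, against 9.70 and 12.3 RPKM in Wnt3a and RIPK4, a gap of 0.27. Wnt receptors and their maturation factors had 0 counted of 12 kept genes and a median of -0.12. SHISA3, of a family known in Xenopus for holding Frizzled receptors in the endoplasmic reticulum, overlapped at 6.76 and 8.27 RPKM in RIPK2 and RIPK3, against 1.73 and 13.3 RPKM in Wnt3a and RIPK4.

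**Figure D4:**
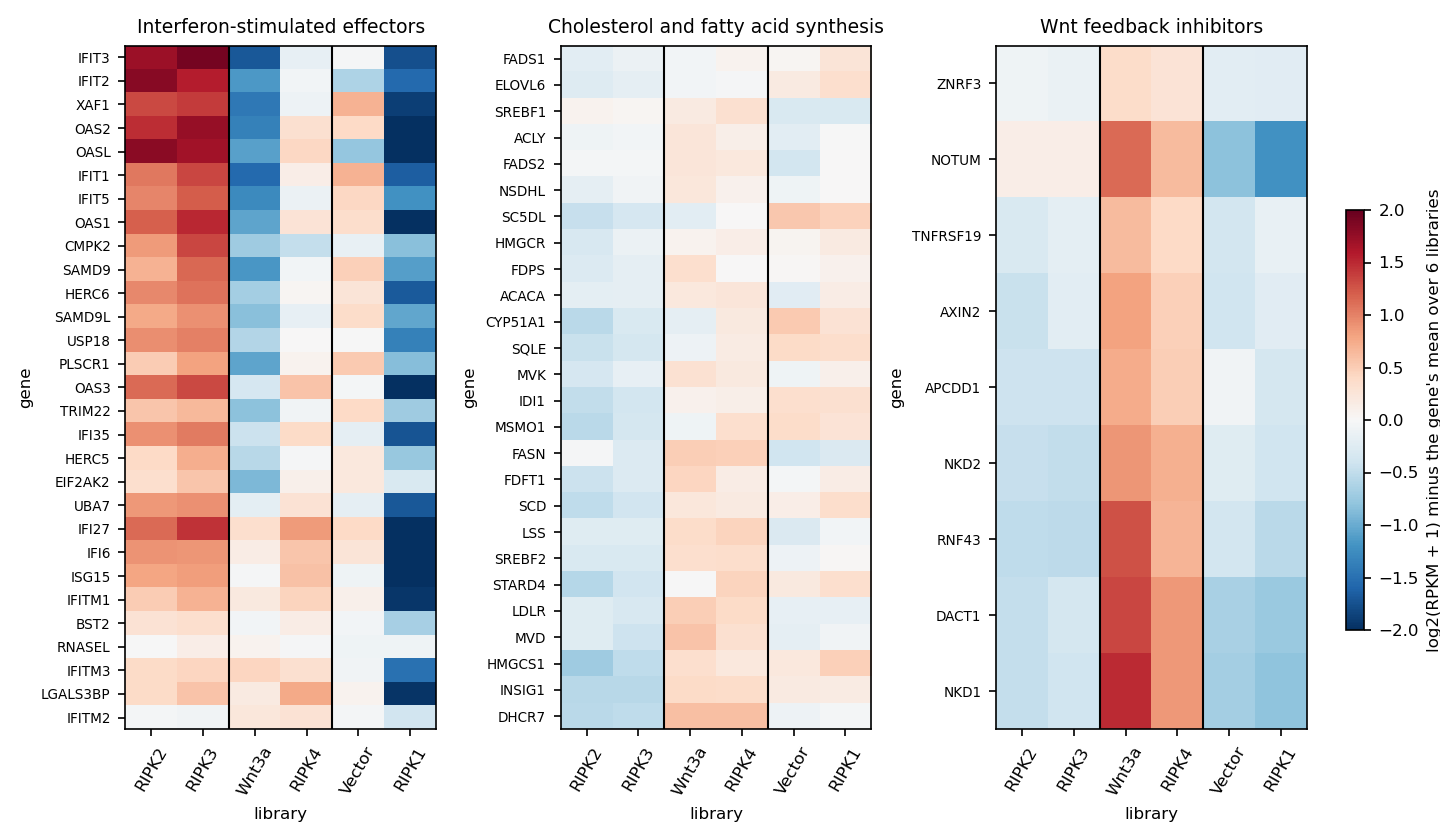
Log2(RPKM + 1) of kept genes, 26 of the 27 for cholesterol and fatty acid synthesis, minus its mean over the 6 libraries, for interferon-stimulated effectors, cholesterol and fatty acid synthesis genes and Wnt feedback inhibitors, with colours capped at 2 either way. RIPK2 and RIPK3 (left of the first line) are red for most effectors and blue for most of the other genes, and RIPK1 (far right) is blue for most effectors.

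At 5 of the 8 other lower coding genes, Vector lay nearer to Wnt3a and RIPK4 than to RIPK2 and RIPK3. PIM1, a serine and threonine kinase, stood at 13.8 and 13.9 RPKM in RIPK2 and RIPK3, against 39.6 and 41.0 RPKM in Wnt3a and RIPK4, with 33.6 RPKM in Vector and 26.4 RPKM in RIPK1 (ratio 2.85, 2.63 to 3.09). MYCN, the neural member of the MYC family, stood at 6.85 and 7.52 RPKM in RIPK2 and RIPK3, against 18.1 and 18.9 RPKM in Wnt3a and RIPK4, with 16.4 RPKM in Vector and 16.6 RPKM in RIPK1. SPSB4, a substrate adaptor of ubiquitin ligases, stood at 28.8 and 29.6 RPKM in RIPK2 and RIPK3, against 61.7 and 64.2 RPKM in Wnt3a and RIPK4, with 51.5 RPKM in Vector. In these 3 genes RIPK2 and RIPK3 were the 2 lowest libraries, and Vector and RIPK1 lay between the pairs. NID2, a basement membrane protein, stood at 3.88 and 4.18 RPKM in RIPK2 and RIPK3, against 10.8 and 10.0 RPKM in Wnt3a and RIPK4, with 8.89 RPKM in Vector. It shares 21.6% of its exon bases with RTRAF, a gene at 156 RPKM on the opposite strand. WSCD1, at 4.61 and 5.10 RPKM in RIPK2 and RIPK3, against 19.8 and 14.1 RPKM in Wnt3a and RIPK4, had 7.02 RPKM in Vector. NKX1-2, a homeobox gene, stood at 1.66 and 1.999 RPKM in RIPK2 and RIPK3, against 5.68 and 6.98 RPKM in Wnt3a and RIPK4, with 2.15 RPKM in Vector.

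Cholesterol and fatty acid synthesis genes, which the SREBP factors control together, formed the most uniform lower list outside the Wnt pathway. All 27 kept of 28 listed genes lay below without overlap, against 30.9% of all genes, with a median of -0.53, yet 1 alone, DHCR7, passed 2-fold. DHCR7, the enzyme of the last step of cholesterol synthesis, stood at 16.9 and 17.3 RPKM in RIPK2 and RIPK3, against 38.7 and 38.6 RPKM in Wnt3a and RIPK4, with 23.2 RPKM in Vector (ratio 2.23, 2.05 to 2.41). With the GC trend removed its gap was -0.98. INSIG1, which holds back SREBP activation, stood at 3.35 RPKM in both RIPK2 and RIPK3, against 7.33 and 7.22 RPKM in Wnt3a and RIPK4, with 6.20 RPKM in Vector. HMGCS1, an early enzyme of the pathway, stood at 26.2 and 30.3 RPKM in RIPK2 and RIPK3, against 55.5 and 50.7 RPKM in Wnt3a and RIPK4, with 50.9 RPKM in Vector. Measured from Vector the list moved both ways, with a median of -0.27 for RIPK2 and RIPK3 and 0.24 for Wnt3a and RIPK4. With the GC trend removed, 25 of the 27 lay below without overlap.

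Smaller shifts ran through other lists with 0 counted genes. Their counts without overlap stand beside 30.9% below and 23% above over all genes. Replication-dependent histones had a median of -0.44, with 11 of 18 kept members below and 0 above, but these genes have near-identical copies and are uncertain. S phase and mitosis genes had a median of -0.11, with 17 of 30 below and 3 above. Hypoxia and glycolysis genes had a median of -0.16, with 13 of 25 below and 3 above, and housekeeping genes a median of -0.19, with 8 of 14 below and 1 above. GAPDH, the glycolytic enzyme often used as a standard, stood at 1183 and 1255 RPKM in RIPK2 and RIPK3, against 1899 and 1542 RPKM in Wnt3a and RIPK4, a gap of -0.30. Pluripotency genes split, with 5 above and 7 below of 15 kept. POU5F1 overlapped at 12.999 and 17.2 RPKM in RIPK2 and RIPK3, against 13.2 and 15.5 RPKM in Wnt3a and RIPK4.

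Sums over markers of the line and of other cell types differed between the pairs, and the part of these markers in the results was not tested. Embryonal markers, of which 9 of 10 reached 1 RPKM and TDGF1 was at 0, summed to 803 to 844 RPKM in RIPK2 and RIPK3, against 1057 to 1199 RPKM in Wnt3a and RIPK4. The lower sum came mostly from LIN28A, at 213 and 241 RPKM in RIPK2 and RIPK3, against 337 and 356 RPKM in Wnt3a and RIPK4, and from PODXL, at 399 and 402 RPKM in RIPK2 and RIPK3, against 558 and 628 RPKM in Wnt3a and RIPK4. SALL4 also lay below without overlap, LIN28B, DPPA4, DNMT3B and L1TD1 lay above, and SOX2 and POU5F1 overlapped. Endothelial markers, 8 of 12 at 1 RPKM or more, summed to 125 to 127 RPKM in RIPK2 and RIPK3, against 89.8 to 96.5 RPKM in Wnt3a and RIPK4. Of those 8, TEK and EGFL7 lay below without overlap, and the others lay above. The gaps above were 0.74 at CDH5, 0.72 at KDR, 0.63 at ESAM, 0.61 at ENG, 0.29 at TIE1 and 0.08 at PECAM1. CDH5, KDR, ESAM and ENG thus passed 1.5-fold, which 1.65% of all genes did on that side. Fibroblast markers, 7 of 12 with DCN at 0, summed to 2286 to 2298 RPKM in RIPK2 and RIPK3, against 1884 to 1966 RPKM in Wnt3a and RIPK4. VIM made up most of this sum, at 2043 and 2020 RPKM in RIPK2 and RIPK3, against 1747 and 1672 RPKM in Wnt3a and RIPK4. COL1A1 and THY1 also lay above, PDGFRB lay below, and COL1A2, PDGFRA and TWIST1 overlapped. Epithelial markers, 4 of 12 with IVL at 0, summed to 311 to 332 RPKM in RIPK2 and RIPK3, against 284 to 287 RPKM in Wnt3a and RIPK4. KRT8 and KRT18 made up most of it and lay above, GRHL3 lay below and SFN overlapped. Haematopoietic markers had 1 of 12 at 1 RPKM or more and HBB at 0, and summed to 6.61 to 7.65 RPKM in RIPK2 and RIPK3, against 4.27 to 4.82 RPKM in Wnt3a and RIPK4. The 1 was CD68, which made up most of the sum, at 4.89 and 4.80 RPKM in RIPK2 and RIPK3, against 1.89 and 1.94 RPKM in Wnt3a and RIPK4. Markers of trophoblast and extraembryonic endoderm, 3 of 12 with CGA, ELF5 and FOXA2 at 0, summed to 12.2 to 12.3 RPKM in RIPK2 and RIPK3, against 17.2 to 17.9 RPKM in Wnt3a and RIPK4. No marker of the 6 lists was counted, against 0.446% of all genes counted higher and 0.143% lower. That absence therefore says little about markers, and CD68 came close with a gap of 0.98. Fewer cells of a kind and less RNA per cell cannot be told apart in such bulk libraries.

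The place of Vector and RIPK1 was measured on a scale where 0 is the Wnt3a and RIPK4 mean and 1 the RIPK2 and RIPK3 mean. For the 52 higher coding genes the median position of Vector was 0.00, and 48 of them lay below 0.5. RIPK1 had a median of -0.28. It was the lowest of the 6 libraries at 40 of the 53 higher genes, against 2498 of all 11878 genes. By the rule, RIPK2 and RIPK3 could not be lowest at the 53, so the share over all genes is not a like one. The 7 counted interferon effectors had a median Vector position of 0.33, ranging up to 0.68. For the 16 lower coding genes the median position of Vector was 0.84. It was 1.03 for the 4 Wnt feedback inhibitors and 1.05 for the 4 Wnt target factors, but 0.37 for the other 8. Against Vector alone, both RIPK2 and RIPK3 stood at least 2-fold higher at 42 of the 53 higher genes. Both Wnt3a and RIPK4 stood at least 2-fold above Vector at 8 of the 17 lower genes, and both RIPK2 and RIPK3 at least 2-fold below it at 3. The rule chose these genes by their values in RIPK2, RIPK3, Wnt3a and RIPK4, so the counts against Vector follow in part from it. They were not taken over all genes.

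**Figure D5:**
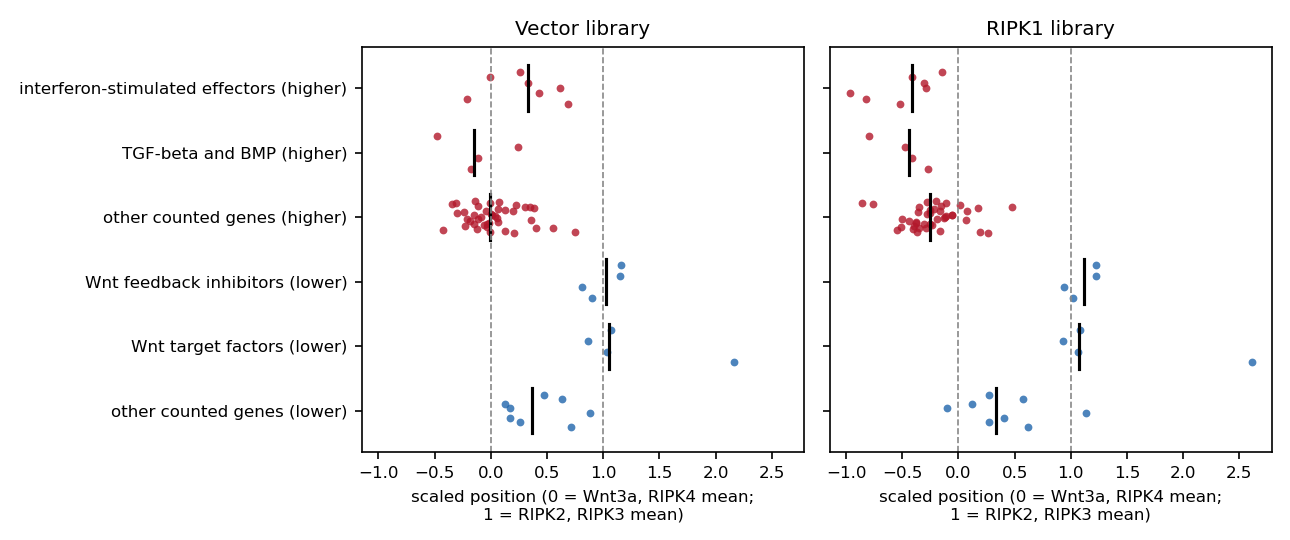
Position of the Vector (left) and RIPK1 (right) libraries for each counted coding gene, on a scale where 0 is the Wnt3a and RIPK4 mean and 1 the RIPK2 and RIPK3 mean in log2(RPKM + 1). Points are genes and black bars medians: Vector lies near 0 for most higher genes and near 1 for 7 of the 8 Wnt genes, with MSX1 at 2.17 the exception, while RIPK1 lies below 0 for all 7 interferon effectors.

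The remaining higher genes fell in no list and were named after their values were seen. They include growth factors and receptors of vessels: PGF, a relative of VEGF, stood at 10.2 and 9.58 RPKM in RIPK2 and RIPK3, against 3.38 and 3.76 RPKM in Wnt3a and RIPK4. PDGFA, a platelet-derived growth factor, stood at 8.37 and 8.68 RPKM in RIPK2 and RIPK3, against 3.24 and 3.41 RPKM in Wnt3a and RIPK4. ELTD1, an adhesion receptor best known from endothelium, stood at 21.4 and 24.7 RPKM in RIPK2 and RIPK3, against 6.22 and 8.24 RPKM in Wnt3a and RIPK4. The enzymes NOX4, which makes hydrogen peroxide, NT5E, which makes adenosine outside the cell, and HMOX1, which degrades haem, were counted as well, with ratios of 3.24, 2.74 and 2.27. Regulators of transcription and chromatin were BHLHE40 with a ratio of 2.69, FOXD1 with 3.33, LHX1 with 3.35 and HMGA2 with 2.52. HMGA2, a chromatin protein of embryonic cells and tumours, stood at 86.5 and 96.3 RPKM in RIPK2 and RIPK3, against 28.0 and 34.4 RPKM in Wnt3a and RIPK4, with 38.6 RPKM in Vector. CXXC4, an inhibitor that binds Dishevelled, was counted higher, at 5.17 and 4.92 RPKM in RIPK2 and RIPK3, against 1.27 and 1.87 RPKM in Wnt3a and RIPK4, with 2.44 RPKM in Vector. In all, 19 of the 53 higher and 10 of the 17 lower genes belonged to a list.

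Length, level and base composition of the counted genes were set beside those of all genes compared. The median transcript length was 3425 bases for the higher and 2908 bases for the lower genes, against 3646 bases for all. The median mean level was 7.72 RPKM for the higher and 9.56 RPKM for the lower genes, against 10.2 RPKM for all genes compared. Median GC content of the transcript was 51.6% for the higher and 56.1% for the lower genes, against 48.3% for all. Across 11776 genes, which are not independent replicates, the difference of pair means had a Spearman rho of -0.15 with GC content. It was -0.52 for RIPK3 minus RIPK2 and -0.34 for RIPK4 minus Wnt3a. Differences from Vector had larger trends, with rho 0.66 for RIPK2, 0.54 for RIPK3, 0.69 for Wnt3a and 0.67 for RIPK4. For RIPK1 minus Vector rho was -0.08. The medians, positions and counts set against Vector above were not corrected for this trend. By RefSeq order a few counted genes were neighbours: IFIT2 and IFIT3 were adjacent with IFIT5 near by, and S100A3 and S100A16, and SP110 and SP100, each lay with 1 or 2 coding genes between them. Just outside the 2-fold mark lay GRPR at 0.996, DDX58 and PHLDA1 above, and TUBB2A at -0.995 and HES6 below.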

How the data were processed

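RNA of 6 PA-1 libraries was sequenced, 1 per group. The authors deposited 1 table of RPKM for 20494 genes, 1 column per library, per the file headers, and columns were matched to groups by title. GSNAP, DESeq and hg19 are named in the submitters' processing notes. Versions, annotation, strand setting and counting rule: not given in the sources used here. Genes were kept from a mean of 1 RPKM, a pseudocount of 1 was added before log2, and values were otherwise used as deposited. The design has 1 library a group, so no test was run.

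Whole reads were recovered by trying lengths of 15 to 30000 bases, which solved 99.5% of the genes compared and gave totals of 17.2 to 19.5 M reads; a length found too short only widens an interval. The recovery and the counting were tested on simulated data. GENCODE 29 gave GC content, length and exon overlap only, and RefSeq gave gene classes, gene order and promoters with GRCh38.p14 coordinates. Tools were Python 3.11.15, numpy 2.4.6, pandas 2.3.3, scipy 1.17.1 and matplotlib 3.10.9.

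The comparison, its members and the 28 gene lists were chosen with earlier results of these data known. Named genes are the 15 largest gaps on each side, up to 4 members of each list and some fixed genes; others are marked or were taken as list members, chosen after their values were seen. Alternatives covered the pseudocount, the filter on low values, 2 scalings, the GC trend, pair means, gene class, the fold and each of the 4 libraries left out. A few genes that the rule takes are not reported here by name or value, but remain in the counts and medians.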

Additional observations from a re-analysis of the deposited data

How the results depend on the processing

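The counts of 53 higher and 17 lower genes depended on the scale more than on the scaling. A pseudocount of 0.1 gave 84 and 50, and one of 5 gave 21 and 4, since it shrinks low genes. A mark of 1.5-fold gave 196 and 146, and 3-fold gave 13 and 3. Means of the pairs, which do not ask both libraries to agree, gave 121 and 60. A mean of at least 5 RPKM left 34 higher genes, with 12 lower. Leaving out 1 library gave 65 to 139 higher and 28 to 61 lower genes, and can only add genes by construction. Counts stayed within 1.5 times with no filter on low values (57 and 19), median-ratio scaling (60 and 16), upper-quartile scaling (55 and 19) and the GC trend removed (61 and 16, of which 51 and 14 were among the counted genes). Of the coding genes, 49 of 52 and 13 of 16 were counted under all 3 of these last settings; SPP1, ARHGAP24, IL29, DHCR7, SPSB4 and MSX1 were not. Scaling moved the median of all genes by at most 0.03. Medians of 8 lists, between -0.121 and 0.129, changed sign under some setting. That of the matrix list did so with upper-quartile scaling (-0.008) and without RIPK3, with a range of -0.018 to 0.059 over the libraries left out. That of small nucleolar RNAs changed sign without RIPK2, with a range of -0.059 to 0.32. That of the pluripotency list (0.063) was -0.244 without Wnt3a, -0.125 without RIPK3, -0.275 at a mean of at least 5 RPKM and -0.007 with no filter. That of Wnt receptors (-0.121) was 0.04 without RIPK4, and that of p53 targets (0.073) was -0.046 without RIPK3. The granin median (0.027) was -0.014 without RIPK2 and -0.001 without Wnt3a. The Eph median (-0.02) was 0.043 with the GC trend removed, 0.003 with median-ratio scaling, 0.042 at a mean of at least 5 RPKM and 0.026 without RIPK2. The actin median (-0.027) was 0.018 with the GC trend removed and 0.007 with median-ratio scaling. The cause was not tested. No paired analysis was possible because the labels number no replicates and each group has 1 library. Depth limits the genes read fewer than 10 times on one side, such as KCNF1 and IL29.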
